A study of Danio rerio with 6 samples.

Results

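The 5p arms of miR-430 are the strands cut from the 5′ side of the miR-430 hairpins, opposite the abundant 3p arms. The table of mature microRNAs held 3 of them, miR-430a-5p, miR-430b-5p and miR-430i-5p, among 134 microRNAs in all, of which 7 belonged to the miR-430 family. They were chosen by name. The choice was made with their levels in view, since miR-430a-5p and miR-430i-5p were high at the earliest stage and low at both later ones. Their levels by stage are therefore given as values, with no test of their own. The cells were primordial germ cells of the zebrafish strain AB, the embryonic precursors of eggs and sperm, and had been picked for their green fluorescence. The labels give no reporter or transgene for that fluorescence and call the tissue gonad. Cells were taken at the shield stage, 6 hours post fertilization (hpf), from embryos with 3 somites (11 hpf) and from prim-5 embryos (24 hpf). Each stage had 2 small RNA libraries, with no other genotype or treatment.

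miR-430 is transcribed from a large cluster of repeated hairpins when the zebrafish embryo switches on its own genome, and its 3p arms pair through their seed (bases 2 to 8) with maternal mRNAs, which are then deadenylated and cleared. Dicer cuts each hairpin into a short duplex of a 5p and a 3p strand. Argonaute keeps a guide strand, here the 3p arm, and the passenger strand is usually lost soon after loading, so that its level lies far below that of the guide. In zebrafish germ cells some miR-430 targets are shielded by the RNA-binding protein Dead end.

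The sequences of the 5p arms, as deposited and in DNA letters, are shown here with the 3p arms of the same names, because the division of reads between names turns on how close they are. Capitals mark the seed.
miR-430i-5p: aCCCTCACaaaagcactgact
miR-430a-5p: aCCCTCACaaaggcactgact
miR-430b-5p: cAACTCTAactttagcatctttc
miR-430a-3p: tAAGTGCTatttgttggggtag
miR-430i-3p: tAAGTGCTatttgttggcgtag
miR-430b-3p: aAAGTGCTatcaagttggggtag

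miR-430a-5p and miR-430i-5p were each 21 bases long, shared the seed CCCTCAC with each other and with no other microRNA of the table, and differed by the single substitution G12A (the base of miR-430a-5p first, counted from its 5′ end). A change between A and G at that base turns either sequence into the other. miR-430b-5p, at 23 bases, stood apart. Its seed AACTCTA occurred in no other row, and its edit distance was 12 from miR-430a-5p and 11 from miR-430i-5p. The 4 3p arms shared the seed AAGTGCT, and miR-430a-3p and miR-430i-3p differed only by G18C. The 5p arms thus carried none of the seed through which the family is known to act.

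Duplexes were predicted from the arms as separate strands. miR-430i-5p formed 16 base pairs with miR-430a-3p at -20.8 kcal/mol and 15 with miR-430i-3p at -14.6 kcal/mol. miR-430a-5p likewise formed 16 base pairs with miR-430a-3p at -20.5 kcal/mol and 15 with miR-430i-3p at -14.3 kcal/mol. miR-430b-5p formed 19 with miR-430b-3p at -18.4 kcal/mol and 14 with miR-430a-3p at -16.2 kcal/mol. In a RefSeq gene table of another assembly, GRCz12tu, 3 loci were named miR-430i, against 18 for miR-430a, 19 for miR-430b and 18 for miR-430c. In 55 of these 58 loci the nearest microRNA genes on both sides were miR-430 as well. No coordinates are given, because that assembly is not danRer11, the build named in the submitters' processing notes.

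The libraries held 35718 to 78973 microRNA reads, of which the miR-430 family supplied 65.4% to 90.6%. Of the totals behind the authors' RPM values, these reads were 0.317% to 0.571%. The intervals below (Wilson, 95%) and the floors for a count of 0 (3 reads) cover counting error only, since PCR copies of a molecule are counted as reads of their own. Nothing in the labels says whether libraries of the same stage had separate clutches as their source, so the spread between them may be technical. The germ cell identity of the samples could not be checked in a table of microRNAs. Of 15 microRNAs fixed as markers of muscle, neurons, blood, epidermis and liver, 5 were listed, none of them for blood or epidermis. Summed, the listed markers made up 0.0172% to 0.0700% of microRNA reads at 6 hpf, 0.0394% to 0.0530% at 11 hpf and 0.100% to 0.163% at 24 hpf. The liver marker miR-122 had 15 reads in 6 hpf replicate 1 and 0 elsewhere. The neuronal markers had 50 reads in 24 hpf replicate 1 and 2 in replicate 2. The part of these markers in the results was not tested. In such pooled cells, fewer cells that hold a microRNA and less of it per cell cannot be told apart.

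By the deposited names, miR-430i-5p had the most reads of the 5p arms. The 6 hpf libraries held 5812 and 10501 of its reads, those of 11 hpf 968 and 1290, and those of 24 hpf 1715 and 1828. Taken as a share of microRNA reads, the 6 hpf libraries stood at 16.3% and 16.4%, those of 11 hpf at 2.14% and 2.68%, and those of 24 hpf at 2.56% and 2.31%. Both 6 hpf libraries lay above all 4 later ones, while those of 11 and 24 hpf overlapped. The members were chosen with this in view, and other microRNAs that separate likewise were not counted, so nothing is read from it. The mean share was 6.80-fold lower at 11 hpf than at 6 hpf and 6.71-fold lower at 24 hpf. By name, a 5p arm of the family thus had rank 3 among all microRNAs in both 6 hpf libraries, behind miR-430a-3p and miR-430b-3p. It had rank 5 in each later library. At 6 hpf its reads came to 131% and 175% of the reads of all microRNAs outside the miR-430 family together. At 11 hpf they came to 10.8% and 17.4%, and at 24 hpf to 9.74% and 6.70%.

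miR-430a-5p, the near twin of miR-430i-5p, took a like course at a lower level. Its reads numbered 493 and 1139 in the libraries of 6 hpf, 109 and 129 in those of 11 hpf, and 152 and 278 in those of 24 hpf. Their share of microRNA reads was 1.38% and 1.78% in the earliest libraries, 0.241% and 0.268% at 11 hpf, and 0.227% and 0.352% at 24 hpf. Again the 6 hpf libraries stood above the others and the later stages overlapped, and again nothing is read from the separation. The mean share was 6.23-fold lower at 11 hpf and 5.46-fold lower at 24 hpf than at 6 hpf. It had ranks 6 and 5 in the 6 hpf libraries, 21 and 15 in those of 11 hpf, and 21 and 19 in those of 24 hpf.

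miR-430b-5p was scarce and uneven. It had 0 and 31 reads at 6 hpf, 0 and 15 at 11 hpf, and 0 and 38 at 24 hpf, so that all its reads came from the libraries numbered replicate 2. Where it was seen, its share of microRNA reads was 0.0486% (interval 0.0342% to 0.0689%) at 6 hpf, 0.0311% (0.0189% to 0.0513%) at 11 hpf and 0.0481% (0.0351% to 0.0660%) at 24 hpf. A count of 0 allowed up to 0.00840%, 0.00662% and 0.00449% in the replicate 1 libraries of the 3 stages. Scaled by miR-430b-3p, its 3p partner, the replicate 2 level would have given 16.1, 14.4 and 39.5 reads there. The difference between libraries of a stage was therefore larger than counting error allowed, and larger than any difference between the stages among the replicate 2 libraries.

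**Figure D1:**
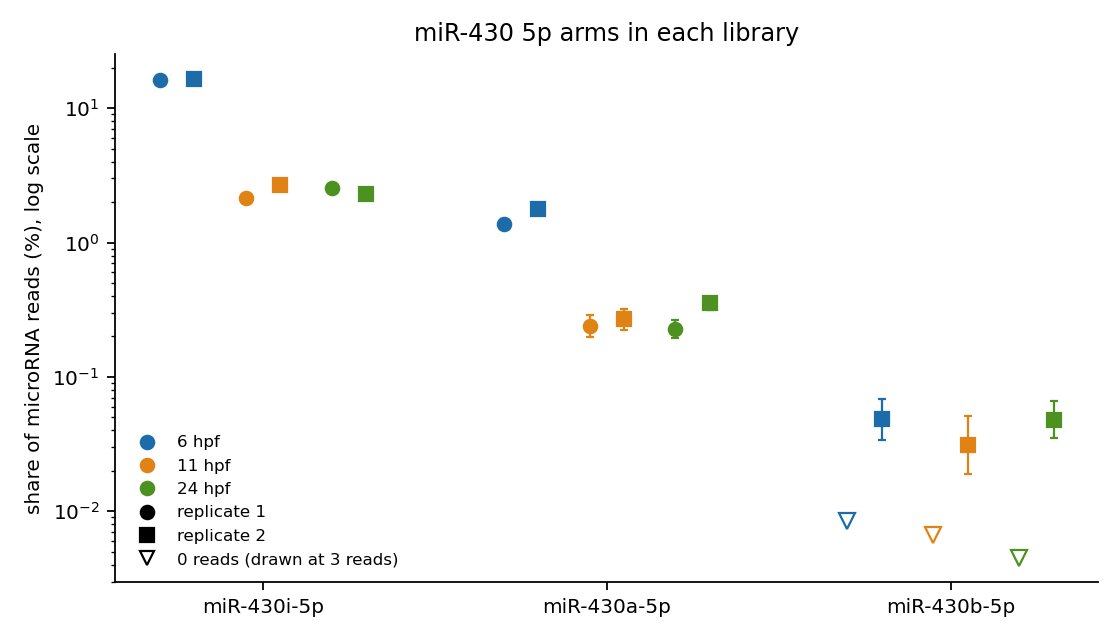
Share of microRNA reads (%, log scale) of each miR-430 5p arm, by library; colours give the stage, circles replicate 1, squares replicate 2, bars the 95% Wilson interval, and open triangles libraries with 0 reads, drawn at 3 reads. miR-430i-5p and miR-430a-5p were highest in both 6 hpf libraries, at 16.3% and 16.4% and at 1.38% and 1.78%, and miR-430b-5p had reads in the replicate 2 libraries alone.

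Of the other microRNAs, only miR-135a shared the pattern of 0 reads in every replicate 1 library and reads in every replicate 2 library, and none showed the reverse. With at least 10 reads in each replicate 2 library, miR-430b-5p was the only one of the 134. Gaps within a stage were common otherwise. In 50 instances a microRNA had 0 reads in a library and at least 10 in the other of its stage, spread over 39 microRNAs, and in 22 of these the reads lay in replicate 2. What the replicate numbers mark is not given in the labels.

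The arm balance of the family needs no scaling between libraries, because both arms are read from the same library. The 5p arms made up 20.15% and 20.18% of miR-430 reads in the 6 hpf libraries, 2.96% and 3.52% in those of 11 hpf, and 3.79% and 4.15% in those of 24 hpf. The stages did not overlap. Of 7 other stems with enough reads, described below, 1 was likewise lower without overlap at 11 hpf and 1 at 24 hpf, each against 6 hpf. For 24 against 11 hpf the other stems were not counted. The members were chosen with their levels in view, so nothing is read from the separation. By stage the mean was 20.2% ± 0.0190 (6 hpf; SD, n = 2), 3.24% ± 0.389 (11 hpf) and 3.97% ± 0.254 (24 hpf). The intervals in the 6 hpf libraries were 19.7% to 20.6% and 19.9% to 20.5%, so these libraries differed by less than counting error. Put the other way, each read of a 5p arm was matched by 3.96 ± 0.00467 (SD, n = 2) reads of a 3p arm at 6 hpf, by 30.1 ± 3.73 at 11 hpf and by 24.2 ± 1.61 at 24 hpf. The 5p share was lowest in the 11 hpf libraries, and both 24 hpf libraries lay slightly above both 11 hpf ones.

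The 3p denominator changed little in its makeup. miR-430a-3p gave 69.0% and 67.6% of 3p reads at 6 hpf, 63.5% and 65.6% at 11 hpf, and 69.4% and 72.0% at 24 hpf. miR-430b-3p gave most of the rest, between 27.1% and 35.7%. miR-430c-3p gave 0.512% to 1.19%. No 5p arm of miR-430c was listed, so miR-430c-3p entered the denominator without a 5p counterpart.

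By name, the balance was uneven. miR-430i-3p had 0 or 1 reads in every library, so that by name the 5p arm of miR-430i held 99.9% to 100% of its reads and was no minor strand. In miR-430a the 5p arm held 2.78% and 3.52% at 6 hpf, 0.485% and 0.497% at 11 hpf, and 0.460% and 0.773% at 24 hpf. With the reads of the near-identical names miR-430a and miR-430i joined, the 5p share was 26.8% and 27.2% at 6 hpf, 4.59% and 5.21% at 11 hpf, and 5.37% and 5.57% at 24 hpf. The 6 hpf libraries were above the later ones by each of these countings except that of miR-430i alone, where every library was near 100%. Again nothing is read from the separation. In miR-430b the 5p arm held at most 0.282%, in 24 hpf replicate 2. The 5p arm therefore had fewer reads than the 3p arm in the family, in miR-430a and in miR-430b, but not in miR-430i by name. Which strand is the passenger was not tested, and the division of reads between miR-430a and miR-430i is uncertain.

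**Figure D2:**
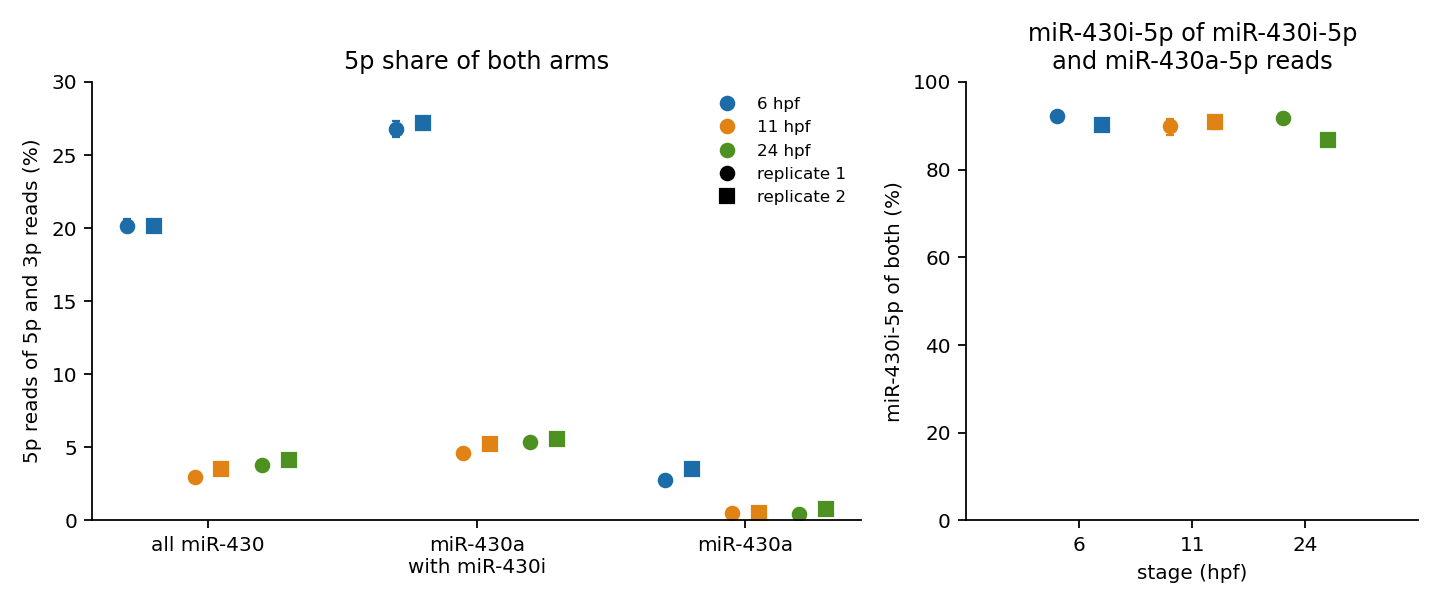
Left, reads of the 5p arm as a share of 5p and 3p reads (%) for all miR-430 rows, for miR-430a joined with miR-430i, and for miR-430a; right, reads of miR-430i-5p as a share (%) of its own reads plus those of miR-430a-5p, by stage; colours give the stage, circles replicate 1, squares replicate 2, and bars the 95% Wilson interval. The 5p share of the family went from 20.2% at 6 hpf to 3.24% at 11 hpf and 3.97% at 24 hpf, while miR-430i-5p kept between 86.8% and 92.2% of the reads of both arms.

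Between the 2 abundant 5p arms the proportion moved far less than their levels. miR-430i-5p supplied 92.2% and 90.2% of their joint reads at 6 hpf, 89.9% and 90.9% at 11 hpf, and 91.9% and 86.8% at 24 hpf. Means were 91.2% ± 1.39 (SD, n = 2), 90.4% ± 0.728 and 89.3% ± 3.58, and the libraries of all stages overlapped. The lowest library, 24 hpf replicate 2, had an interval of 85.3% to 88.2%, which met only that of 11 hpf replicate 1 (87.9% to 91.5%). In reads of miR-430i-5p for each read of miR-430a-5p, the range was 6.58 to 11.8. By the deposited names, more reads were thus given to miR-430i-5p in each library. How reads were divided between these names, 1 base apart, is not stated, so their levels by name are uncertain, and miR-430i-3p had at most 1 read beside 968 to 10501 of miR-430i-5p. The part of read assignment in this split was not tested.

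For miR-430i-5p and miR-430a-5p, the size of the difference from 6 hpf depended on what the reads were divided by, its direction did not. In the authors' RPM, whose denominator is a total much larger than the microRNA reads, miR-430i-5p stood at 554 and 866 at 6 hpf, 67.7 and 143 at 11 hpf, and 146 and 86.1 at 24 hpf. The mean RPM was 6.74-fold lower at 11 hpf and 6.11-fold lower at 24 hpf. For each 1000 reads of the 3p arms there were 230 ± 3.67 (SD, n = 2) reads of miR-430i-5p at 6 hpf, 30.1 ± 3.76 at 11 hpf and 36.5 ± 0.507 at 24 hpf. Against the reads outside the miR-430 family, the mean ratio was 10.9-fold lower at 11 hpf and 18.6-fold lower at 24 hpf. On that scale both 24 hpf libraries also lay below both 11 hpf libraries. The order of 11 and 24 hpf for miR-430i-5p thus turned with the denominator: higher at 24 hpf against the miR-430 reads, overlapping against all microRNA reads and in RPM, and lower at 24 hpf against the other microRNAs.

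edgeR's quasi-likelihood fit across the 69 microRNAs that passed the filter on low counts, with TMM scaling, kept all 3 members. Between 6 and 11 hpf the log2 difference was -3.44 (SE 0.37) for miR-430i-5p and -3.35 (SE 0.38) for miR-430a-5p, and the median over all tested microRNAs was -0.08. Between 6 and 24 hpf it was -3.86 (SE 0.38) and -3.65 (SE 0.39), with a median of -0.36. These 2 arms were past the threshold (adjusted p under 0.05) in both comparisons, so that 2 of 3 members fell, where falls made up 4.35% of all tested microRNAs at 11 hpf and 8.7% at 24 hpf. Since the members were chosen from these contrasts, nothing is read from the counts. Between 11 and 24 hpf the difference was -0.42 (SE 0.34) for miR-430i-5p and -0.30 (SE 0.35) for miR-430a-5p, each near its error. Here 0% of microRNAs were called as falls by edgeR and 0 by DESeq2, and 4 of 69 were lower at an unadjusted p under 0.05. The 3 comparisons share libraries and are no independent support for each other. For miR-430b-5p no fitted difference is given, since it would rest on libraries with 0 reads.

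The calls depended on single libraries and on the setting. Without 6 hpf replicate 2 neither arm was past the threshold in either comparison, with log2 differences of -2.90 for miR-430i-5p and -2.61 for miR-430a-5p at 11 hpf and -3.28 and -2.77 at 24 hpf. Without 11 hpf replicate 1 both lost the call at 11 hpf (-3.22 and -3.20), and miR-430a-5p lost it also without 11 hpf replicate 2 (-3.62) or 24 hpf replicate 1 (-3.36). At 24 hpf both lost it without 24 hpf replicate 1 (-3.96 and -3.34) or replicate 2 (-3.59 and -3.74). With the authors' library totals for scaling, both lost it at 11 hpf (-2.75 and -2.69), as they did in a fit of only the 2 stages compared (-3.07 and -2.99). The differences themselves against 6 hpf were below 0 in all 16 other settings, from -3.81 to -2.75 for miR-430i-5p at 11 hpf and from -4.22 to -2.61 at 24 hpf.

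**Figure D3:**
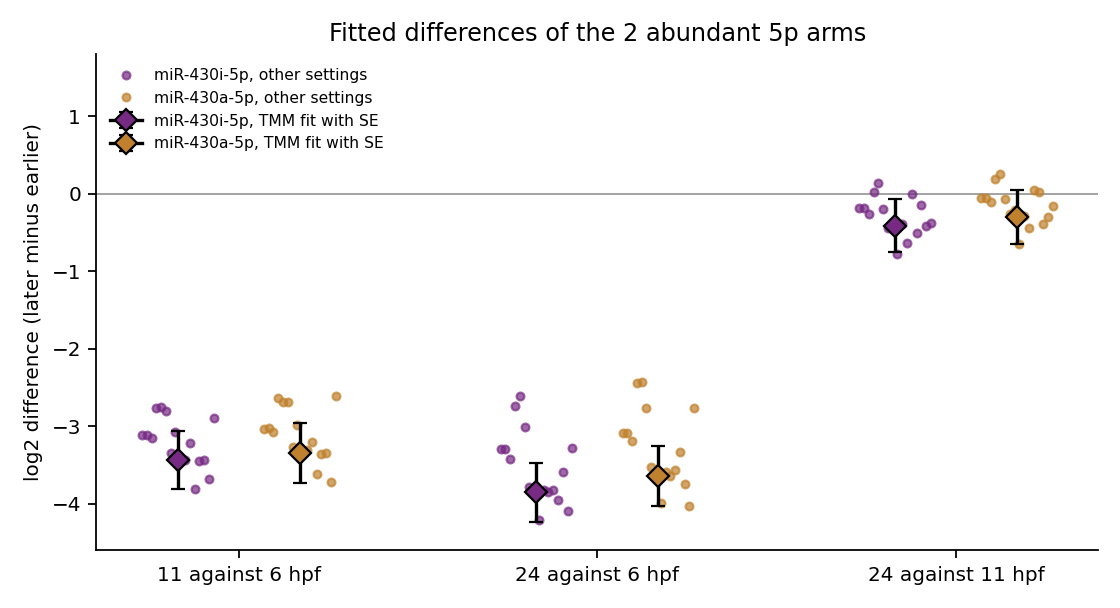
Log2 difference (later minus earlier stage) of miR-430a-5p and of miR-430i-5p from the fit across all tested microRNAs; diamonds with bars are the TMM fit and its SE, small points the 16 other settings (scaling, filter, tool, replicate block, left-out libraries). All points against 6 hpf lie at or below -2.43, and those between 11 and 24 hpf lie on both sides of 0.

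The 5p strands were also set among all tested microRNAs named by arm. Of 23 tested microRNAs named as 5p arms, the 3 members included, 2 fell between 6 and 11 hpf, both of them members. The median log2 difference of the 23 was -0.11. Of 22 named as 3p arms none fell and 1 rose, with a median of 0.11. Between 6 and 24 hpf, 3 of the 23 fell and 3 rose, with a median of -0.12. The falls were miR-92a-5p and 2 of the members, miR-430i-5p and miR-430a-5p. Of the 22 named as 3p arms none fell and 2 rose over that span, with a median of -0.57. Over all 69 tested, falls made up 4.35% at 11 hpf and 8.7% at 24 hpf. Since the members were chosen from these contrasts, nothing is read from these counts. The 3 tested 3p arms of miR-430 had none past the threshold and a median of -0.38 at 11 hpf, and of -1.15 at 24 hpf. At 24 against 6 hpf, miR-430a-3p stood at -1.15 (SE 0.31) and miR-430b-3p at -1.34 (SE 0.36). Each had an adjusted p of 0.072 in the edgeR fit, close to the threshold. miR-430c-3p stood at -0.20 (SE 0.49). These medians and differences are under TMM. With the authors' library totals the median over all 69 was 0.38 at 11 hpf and 0.88 at 24 hpf, so no direction is read from the TMM values. The effective library sizes under TMM ran from 28245 in 6 hpf replicate 1 to 132100 in 24 hpf replicate 2.

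Minor arms of other microRNAs gave the closest background for the arm balance. The minor arm is the one with fewer reads over the 6 libraries and need not be the passenger strand. miR-181a-3p, for example, held 53.4% of the reads of both arms in 6 hpf replicate 1 and 58.1% in 11 hpf replicate 1. Both arms were listed for 18 stems outside the family, and 7 of them had at least 20 reads of both arms in every library. In 1 of the 7, miR-92a of the miR-17-92 cluster, both 11 hpf libraries lay below both 6 hpf libraries in the share of the minor arm, as in miR-430. miR-92a-5p had 273 and 304 reads at 6 hpf, 28 and 1 at 11 hpf, and 1 and 3 at 24 hpf. The guide miR-92a-3p had 1152 and 1274, then 2198 and 2245, then 3884 and 5507. These are plain reads from libraries of unequal depth. Under TMM the log2 difference of miR-92a-3p from 6 hpf was 0.24 (SE 0.14) at 11 hpf and 0.21 (SE 0.14) at 24 hpf. By stage the 5p share of miR-92a was 19.2% ± 0.0757 (6 hpf; SD, n = 2), 0.651% ± 0.858 (11 hpf) and 0.0401% ± 0.0203 (24 hpf). At 6 hpf the mean 5p shares of all miR-430 rows and of miR-92a thus lay within 1 percentage point of each other. Both shares were far lower in every library from 11 hpf on. The closeness at 6 hpf held for that counting only. For miR-92a it left out miR-92a-2-5p, which had 31 and 65 reads at 6 hpf. Counting these would raise the miR-92a share. The miR-430 share was 2.20% without the rows named miR-430i, and 27.0% for miR-430a joined with miR-430i.

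In the other 6 stems the libraries of 6 and 11 hpf overlapped in the share of the minor arm. For miR-26a, let-7c and miR-20a this was fixed beforehand. A 6 hpf library of each had 0 reads of the minor arm, and no share can lie below that. For miR-199-3p, of the mesenchymal miR-199, the earlier share was 15.0% ± 4.75 (SD, n = 2) and the later 11.6% ± 4.04. For miR-30e-5p it was 9.28% ± 5.12 and 9.18% ± 0.621, and for miR-181a-3p 29.1% ± 34.4 and 42.5% ± 22.1, with 21 reads of both arms in the shallowest library. miR-26a-3p was seen in replicate 2 alone, with 36 reads at 6 hpf and 15 at 11 hpf, while let-7c-3p had 1 read in 6 hpf replicate 1 and 0 elsewhere. miR-20a-3p had 13 reads in 24 hpf replicate 1 and 0 elsewhere. The median change over the 7 stems was -0.255 percentage points between 6 and 11 hpf, within a range of -18.6 to 13.4, and 3.02 between 6 and 24 hpf. The first median is the value of let-7c, from 1 read, and the second that of miR-20a, from 13 reads in 1 library. No typical change is read from them. In none of the 7 was the minor arm higher without overlap in either comparison. Leaving out a 6 hpf library raised the stems with a lower minor arm at 11 hpf from 1 to 3 of 7, as did, to 2, leaving out 11 hpf replicate 2. With fewer libraries this count can only stay or rise, so nothing is read from the rise.

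**Figure D4:**
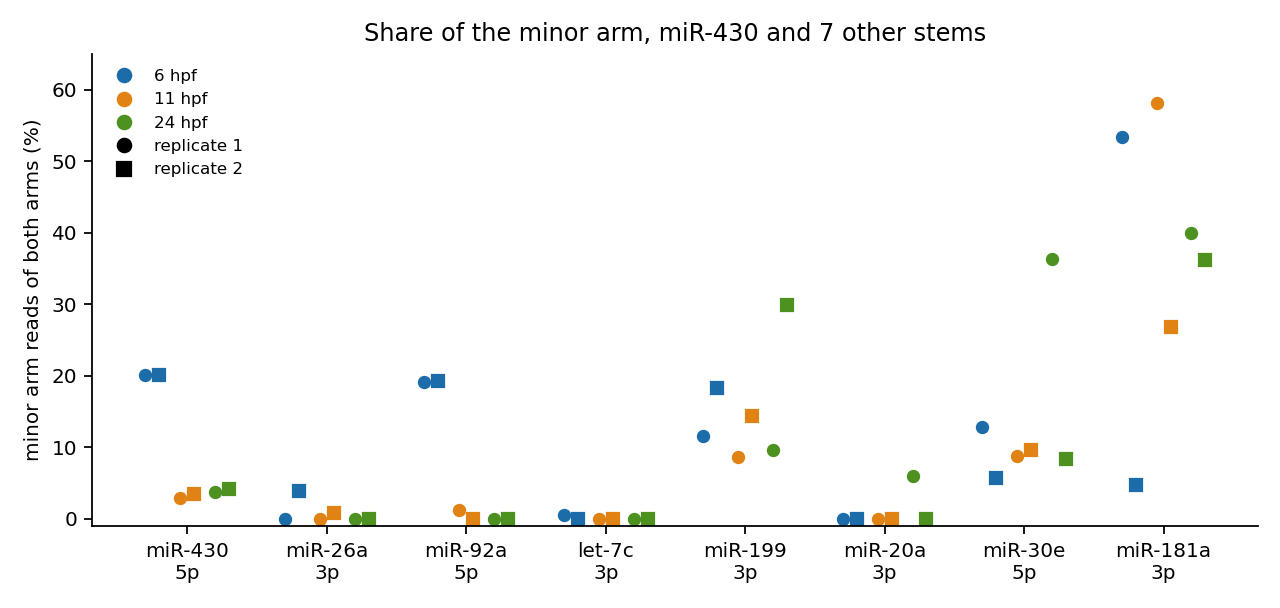
Reads of the minor arm as a share (%) of the reads of both arms, for miR-430 and for the 7 other stems with at least 20 reads of both arms in every library; colours give the stage, circles replicate 1 and squares replicate 2. miR-430 (20.2% to 3.24%) and miR-92a (19.2% to 0.651%) were the stems whose 6 hpf libraries both lay above both 11 hpf libraries. miR-26a, let-7c and miR-20a could not show this, with 0 reads of the minor arm in a 6 hpf library.

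The course of the summed 5p arms over the 6 libraries was compared with each of the 63 tested microRNAs outside the family, as the Pearson r of log2 CPM under TMM. The median r was -0.10, and 29 were above 0. The most alike were miR-92a-2-5p (r = 0.99), miR-92a-5p (r = 0.91), miR-145-3p (r = 0.87), miR-15b-3p (r = 0.83) and miR-22a-3p (r = 0.80). All values of a library share its scaling factor, and the r is a description over 6 points in 3 stages. miR-92a-2-5p had 0 reads in every library after 6 hpf, so its values there are set by the prior count. On plain shares of microRNA reads, a measure chosen after seeing the data, the first 2 stayed first, with r = 0.99 and 0.86. There miR-145-3p and miR-22a-3p dropped to 0.37 each, and miR-15b-3p stood at 0.75.

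miR-92a-2-5p, the 5p strand of a further miR-92a hairpin, had 31 and 65 reads at 6 hpf and 0 in the 4 later libraries. Its reads were thus confined to the stage at which the miR-430 5p arms were highest. It was named for its high r with these arms, so nothing is read from the shared stage. miR-15b-3p had 99 and 69 reads at 6 hpf, 0 and 63 at 11 hpf and 0 in both 24 hpf libraries, so that the 11 hpf libraries differed. miR-145-3p, the lesser-known strand of the smooth muscle microRNA miR-145, had between 6 and 12 reads in every library and showed no course of its own in the reads. miR-22a-3p had 114 and 71 reads at 6 hpf, 42 and 59 at 11 hpf, and 79 and 188 at 24 hpf.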

How the data were processed

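Small RNA libraries were made with a microscale method, per the labels' protocols. Per the submitters' processing notes, Bowtie 1.0.0-5 and the build danRer11 were used, with no roles stated. The rule for a read that fits several microRNAs is not stated. The deposited file gives whole read counts for 134 mature microRNAs and the authors' RPM values, which equal the counts times 1 constant per library.

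Counts were fitted with edgeR 4.0.16 (R 4.3.3) by the quasi-likelihood test: filterByExpr with a minimum count of 10 kept 69 microRNAs, with TMM scaling, all 6 libraries and stage as the only term, Benjamini-Hochberg adjusted over the 69. The SE is the difference divided by the square root of F. Scripts were tested on simulated data. Arm shares were computed per library, with Wilson intervals from SciPy 1.17.1. Duplexes were predicted with RNAduplex of ViennaRNA 2.7.2. Named were the members, the miR-430 3p arms, the 5 microRNAs most alike by Pearson r (log2 CPM, prior count 2), and the stems with both arms and at least 20 reads. The 5 largest stems were to be named by read total; miR-30e and miR-181a were added after their values were seen. The members, lists and tests were chosen with earlier results of these data known. DESeq2 1.42.0 and the other alternatives are listed in the closing section. Figures were drawn with matplotlib 3.10.9.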

Additional observations from a re-analysis of the deposited data

How the results depend on the processing

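The number of microRNAs called as falls at 11 against 6 hpf was 3, and was 0 with the authors' library totals and in a fit of only the 2 stages compared. It was 0 to 2 when each replicate was left out in turn. At 24 against 11 hpf it was 0, and 4 with RLE size factors and with the reads outside miR-430 as library size. At 24 against 6 hpf it was 6, and 3 with no filter, 3 with a mean of 100 reads in at least 1 stage, 12 in the fit of 2 stages, 14 with the reads outside miR-430 as library size and 0 to 12 with a replicate left out. With the replicate number as a block it was 2 there, and both abundant 5p arms were among these calls (-3.83 for miR-430i-5p, -3.59 for miR-430a-5p). The labels give libraries of the same number no other link. Their deviations from the stage means correlated at 0.14 (6 with 11 hpf), 0.06 (6 with 24 hpf) and -0.24 (11 with 24 hpf). Whether they had a source or batch in common cannot be told from these values. The cause of the changes in the number of falls was not tested.

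The 5p share of miR-430 reads at 6, 11 and 24 hpf was 2.20%, 0.336% and 0.477% without the rows named miR-430i. It was 27.0%, 4.90% and 5.47% in the rows of miR-430a and miR-430i, and 0.105%, 0.0569% and 0.141% in those of miR-430b. With reads pooled it was 20.2%, 3.26% and 3.97%. With 2 libraries a stage, leaving out either gives the value of the other and no check of stability: 20.15% to 20.18% at 6 hpf, 2.96% to 3.52% at 11 hpf and 3.79% to 4.15% at 24 hpf. The number of other stems with a lower minor arm at 11 hpf was 1 to 3 with a replicate left out, which can only keep or raise it. TMM computed from the microRNAs outside miR-430, chosen after seeing the data, gave 3, 0 and 7 falls. The stricter filter did not test miR-430b-5p. Depth limits the minor arms that had few reads. For miR-430b-5p the gap between libraries of a stage was larger than counting error, and its cause was not tested.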
